A study of Mus musculus with 9 samples.

Results

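The respiratory chain of mouse ear was followed through 104 genes, 91 encoded in the nucleus and 13 in mitochondrial DNA, out of 54838 genes counted. Members were protein-coding genes whose symbol begins with mt-, Nduf, Uqcr, Atp5 or Cox4 to Cox8, together with Sdha, Sdhb, Sdhc, Sdhd, Cycs and Cyc1, that had at least 10 counts summed over 9 libraries. Of 109 such rows, 5 fell short: Cox6b2 with 9 counts, Cox4i2 with 6, and Cox7b2, Cox8c and an extra Atp5o row (ENSMUSG00000116933) with 0. The lowest rows kept were Cox5a with 104 counts, Ndufaf3 with 129 and Atp5s with 150. The 91 nuclear members comprised 80 subunits, cytochrome c included, and 11 assembly factors and related proteins. All 104 passed the filter on low counts and were tested among 13807 genes.

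Each group held 3 libraries of ear RNA from C57BL/6 mice aged 10 weeks, made by 3' tag RNA-Seq, which reads each transcript near its 3' end. Mdl-1-/- mice received 15 µg of IL-23 minicircle DNA through the tail vein (hydrodynamic injection), WT mice received the same IL-23 DNA, and WT mice with GFP minicircle DNA were the controls. A minicircle is a small DNA circle from which the injected animal makes the encoded protein, so every group carried an injected circle. MDL-1 is a receptor of myeloid cells encoded by Clec5a, and IL-23 is a cytokine that drives psoriasis-like skin inflammation; the series asks which part of the IL-23 response of the skin depends on MDL-1. Mdl-1-/- mice with GFP DNA were not analysed here, so a genotype difference present before IL-23 and a response that depends on MDL-1 cannot be told apart. The libraries are numbered within each group and are not stated to be separate animals, so the tests see only the library-to-library spread, which may be technical.

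Complexes I to IV of the inner mitochondrial membrane pass electrons from NADH and succinate to oxygen. Complexes I, III and IV pump protons as they do so, and the ATP synthase uses that gradient to make ATP. These 3 complexes and the ATP synthase combine subunits made in the cytosol from nuclear genes with subunits made inside the organelle from mitochondrial DNA, while complex II is wholly nuclear. The mitochondrial genome is transcribed as long RNAs that are cut into shorter ones, almost all from 1 strand, with mt-Nd6 from the other. Most of the messages carry 1 gene, while mt-Atp8 with mt-Atp6 and mt-Nd4l with mt-Nd4 each share 1. Skin epidermis relies heavily on glycolysis, whereas muscle and brown fat are rich in mitochondria.

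Library totals ran from 3776188 to 5605713 counts. Clec5a had 10, 13 and 5 counts in the Mdl-1-/- IL-23 libraries, 17, 21 and 11 in the WT IL-23 libraries and 2, 7 and 10 in the WT GFP libraries. The deleted part is not named in the labels, so a 3' tag does not check the genotype. The make-up of the ear RNA moved with the groups. Summed over 8 markers of stressed keratinocytes, levels were 9451 to 32553 CPM, counts scaled to a common library size, in Mdl-1-/- IL-23 libraries, 52568 to 102971 CPM in WT IL-23 libraries and 384 to 679 CPM in WT GFP libraries. Over 14 neutrophil markers, of which S100a8 and S100a9 also stand in the keratinocyte list and Ngp, Ltf and Camp were at or near 0, the sums were 6780 to 26032 CPM, 35067 to 74428 CPM and 330 to 464 CPM in the same order. S100a9 alone averaged 3393, 9596 and 79.2 CPM in that order, while Cxcr2 averaged 30.4, 36.9 and 2.77 CPM and Retnlg 3.12, 14.7 and 1.43 CPM. The neutrophil and stressed keratinocyte sums share these abundant S100 genes and are not separate measures. Over 12 adipocyte markers they were 178 to 212 CPM, 145 to 217 CPM and 439 to 800 CPM. Over 12 cartilage markers, with Matn1 at 0 in all 9 libraries, they were 146 to 206 CPM, 102 to 142 CPM and 326 to 396 CPM. Over 6 brown fat markers, with Ucp1 at 0 to 3 counts, they were 168 to 231 CPM, 116 to 226 CPM and 323 to 426 CPM, and over 10 epidermal keratinocyte markers 32868 to 36084 CPM, 27307 to 31592 CPM and 14385 to 19271 CPM. Among tested markers, WT IL-23 against WT GFP called 8 of 8 stressed keratinocyte, 7 of 10 epidermal keratinocyte and 8 of 9 neutrophil genes higher. It called 10 of 11 adipocyte, 3 of 4 brown fat, 8 of 8 cartilage and 2 of 10 epidermal keratinocyte genes lower. The same comparison called 22.9% of all tested genes higher and 21.7% lower, so the 2 epidermal keratinocyte falls lie near that share. Mdl-1-/- IL-23 against WT IL-23 called 5 of the 8 stressed keratinocyte and 3 of the 9 neutrophil genes lower, none of the fat and cartilage genes in either direction, and 3 epidermal keratinocyte genes higher and 2 lower. There 7.58% of all tested genes were called higher and 10.1% lower. The part of these shifts in the results that follow was not tested, and in whole-ear RNA fewer cells of a type and less RNA per cell cannot be told apart.

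Mitochondrially encoded messages made up a larger share of the raw counts in Mdl-1-/- than in WT mice under IL-23, and a smaller share in WT mice under IL-23 than under GFP DNA. The nuclear members as a sum moved the other way in WT mice. The 13 mitochondrial genes took 5.71%, 6.06% and 5.87% of all counts in the Mdl-1-/- IL-23 libraries, 5.17%, 5.28% and 5.06% in the WT IL-23 libraries and 7.27%, 6.07% and 6.80% in the WT GFP libraries. Every Mdl-1-/- IL-23 library and every WT GFP library lay above every WT IL-23 library in this raw share. The CPM and tests in this text rest on further scaling factors. These were 0.94 to 1.01 in Mdl-1-/- IL-23, 0.80 to 0.93 in WT IL-23 and 1.15 to 1.18 in WT GFP libraries. Summed CPM of the 13 genes therefore need not follow the order of the raw shares and were not compared. The 91 nuclear genes took 1.26%, 1.45% and 1.53% in the Mdl-1-/- IL-23 libraries, 1.57%, 1.63% and 1.55% in the WT IL-23 libraries and 1.48%, 1.36% and 1.41% in the WT GFP libraries. Here the WT IL-23 libraries were the highest, by little over Mdl-1-/- library 3. Atp5l, with 102694 counts over the 9 libraries, weighs most in this nuclear sum, and its level is uncertain because pseudogenes received like counts. The sum without Atp5l was not computed, so the order of the groups may rest on it.

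Within a library the ratio of mitochondrial to nuclear counts does not depend on the other genes. It was 4.54, 4.19 and 3.85 in the Mdl-1-/- IL-23 libraries, 3.29, 3.25 and 3.27 in the WT IL-23 libraries and 4.92, 4.47 and 4.84 in the WT GFP libraries. The 3 WT IL-23 ratios lay within a narrow band below all others, and Mdl-1-/- library 1 alone overlapped the WT GFP range. On the log2 scale the mean ratio differed by 0.36 for Mdl-1-/- IL-23 against WT IL-23 (1.28-fold), by -0.54 for WT IL-23 against WT GFP (0.689-fold) and by -0.18 for Mdl-1-/- IL-23 against WT GFP (0.882-fold); these are descriptions without a test. Mitochondrial ribosomal RNAs, which are not members, lay in the same order: mt-Rnr2 took 3.18% to 3.85%, 2.02% to 2.31% and 3.38% to 4.34% of counts in the Mdl-1-/- IL-23, WT IL-23 and WT GFP libraries.

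**Figure D1:**
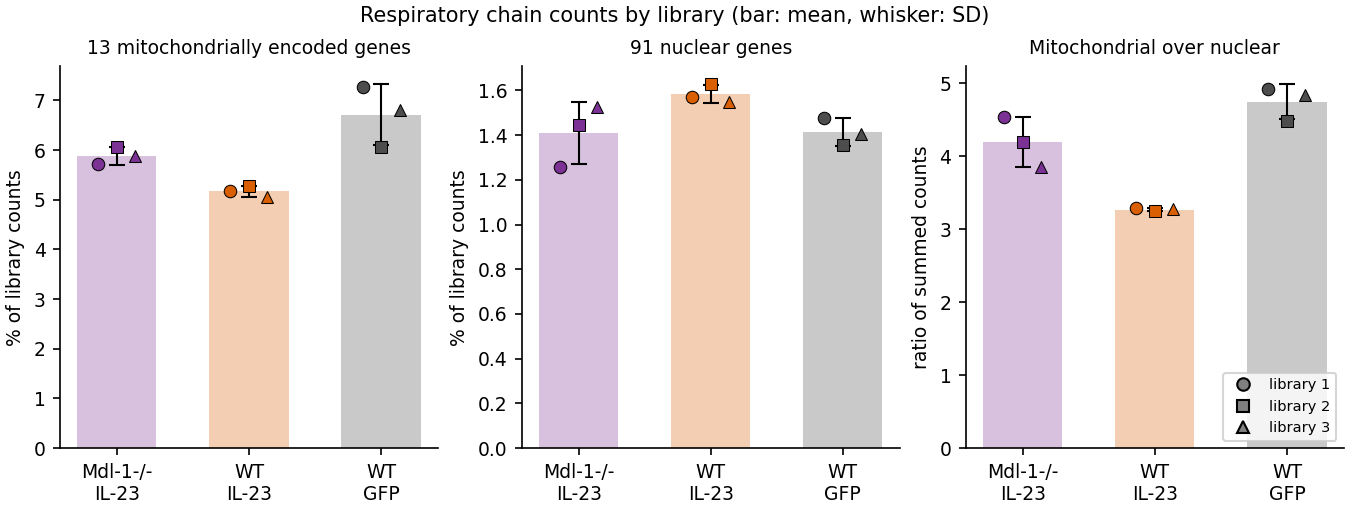
Share of library counts (%) of the 13 mitochondrially encoded genes (left) and of the 91 nuclear genes (middle), and their ratio (right), in the Mdl-1-/- IL-23, WT IL-23 and WT GFP groups. Bars are group means, whiskers SD (n = 3) and points libraries; the WT IL-23 ratios of 3.25 to 3.29 lie below the other 6 libraries.

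The 13 mitochondrial genes did not move together. Between Mdl-1-/- and WT mice under IL-23, 6 of 13 rose and 1 fell, where 7.58% of all tested genes were called higher and 10.1% lower; a gene is called where its Benjamini-Hochberg adjusted p in edgeR's quasi-likelihood test is under 0.05. Between WT IL-23 and WT GFP, 2 of 13 rose and 6 fell, where 22.9% of all tested genes were called higher and 21.7% lower. The median log2 fold change of the 13 was 0.35 and -0.31 in these comparisons, against 0.00 and -0.04 over all tested genes. The comparisons share the WT IL-23 libraries, so opposite signs in them are not separate observations. Between Mdl-1-/- IL-23 and WT GFP, 0 of 13 were called in either direction with edgeR, 0 had an unadjusted p under 0.05 and DESeq2 also called 0, while 10.2% of all tested genes were called higher and 6.93% lower.

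Among the complex I messages, mt-Nd6, a membrane-arm subunit encoded on the strand that carries few genes (chromosome M, 13552 to 14070, minus strand, GRCm38), had the largest fold changes of the 13 in the comparisons of WT IL-23 with the other groups. It had 1408, 1456 and 1492 CPM in Mdl-1-/- IL-23 libraries, 834, 659 and 804 CPM in WT IL-23 libraries and 1811, 1144 and 1777 CPM in WT GFP libraries. The WT IL-23 libraries lay below all 6 others. It was 1.90-fold higher in Mdl-1-/- than in WT mice under IL-23 (log2 fold change 0.92, SE 0.16, adjusted p = 0.0024) and 2.06-fold lower in WT IL-23 than in WT GFP ears (log2 fold change -1.04, SE 0.16, adjusted p = 0.00011). Its gene lies next to and opposite mt-Nd5, and as the strand setting of the counting is not given, reads of the neighbours may not be fully separated. mt-Nd2, also of the membrane arm, had 6977, 8650 and 7875 CPM in Mdl-1-/- IL-23 libraries, 5617, 4357 and 5268 CPM in WT IL-23 libraries and 8483, 7608 and 8949 CPM in WT GFP libraries. It rose 1.54-fold in Mdl-1-/- against WT under IL-23 (adjusted p = 0.0054) and fell 1.64-fold in WT IL-23 against WT GFP (adjusted p = 0.0004), without overlap of groups. mt-Nd5, a subunit with a proton channel, averaged 786 ± 63.4 CPM in Mdl-1-/- IL-23, 578 ± 37.1 CPM in WT IL-23 and 868 ± 64.4 CPM in WT GFP ears (SD, n = 3 each). Its rise of 1.36-fold in Mdl-1-/- against WT under IL-23 (adjusted p = 0.024) was no longer called without Mdl-1-/- library 2 or 3 or WT IL-23 library 1 or 2 (adjusted p = 0.0554 to 0.086).

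The complex I message mt-Nd4 went against these. It had 12606, 13657 and 12230 CPM in Mdl-1-/- IL-23 libraries, 15025, 16088 and 16338 CPM in WT IL-23 libraries and 12591, 12396 and 11921 CPM in WT GFP libraries, so the WT IL-23 libraries were the 3 highest. It rose 1.29-fold in WT IL-23 against WT GFP (log2 fold change 0.36, SE 0.11, adjusted p = 0.011), a call lost without WT GFP library 3 (adjusted p = 0.0646) and with upper-quartile scaling (adjusted p = 0.102). Its log2 fold change in Mdl-1-/- against WT under IL-23 was -0.30 (adjusted p = 0.059). mt-Nd1, mt-Nd3 and mt-Nd4l, the remaining complex I genes, were called in no comparison. As mt-Nd4l shares its message with mt-Nd4 and had 9931 counts against 572491 over the 9 libraries, their calls are not those of 2 messages. Without WT GFP library 2, mt-Nd3 passed in Mdl-1-/- against WT under IL-23 (adjusted p = 0.038) and in WT IL-23 against WT GFP (adjusted p = 0.00634).

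Of the 3 core subunits of complex IV, cytochrome c oxidase, mt-Co1 and mt-Co2 went one way and mt-Co3 the other. mt-Co1, which holds the site where oxygen is reduced, had 4052, 4052 and 3717 CPM in Mdl-1-/- IL-23 libraries, 2147, 2191 and 2053 CPM in WT IL-23 libraries and 4562, 2710 and 3888 CPM in WT GFP libraries. All WT IL-23 libraries lay lowest, with WT GFP library 2 nearest to them. mt-Co1 rose 1.85-fold in Mdl-1-/- against WT under IL-23 (log2 fold change 0.89, SE 0.15, adjusted p = 0.0024) and fell 1.75-fold in WT IL-23 against WT GFP (log2 fold change -0.80, SE 0.15, adjusted p = 0.00063). mt-Co2, the subunit that takes electrons from cytochrome c, had 4719, 5072 and 4964 CPM in Mdl-1-/- IL-23 libraries, 3011, 3151 and 3383 CPM in WT IL-23 libraries and 5506, 3148 and 5003 CPM in WT GFP libraries. There library 2 fell inside the WT IL-23 range. It rose 1.55-fold in Mdl-1-/- against WT under IL-23 (adjusted p = 0.017; 0.0614 without WT IL-23 library 2) and fell 1.43-fold in WT IL-23 against WT GFP (adjusted p = 0.017). The fall was no longer called without WT IL-23 library 1 or 2 or WT GFP library 1 or 3 (adjusted p = 0.0577 to 0.118).

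mt-Co3 had 8498, 10841 and 9385 CPM in Mdl-1-/- IL-23 libraries, 11114, 13398 and 13999 CPM in WT IL-23 libraries and 8497, 9085 and 8085 CPM in WT GFP libraries. The WT IL-23 libraries were the 3 highest. mt-Co3 rose 1.5-fold in WT IL-23 against WT GFP (log2 fold change 0.59, SE 0.13, adjusted p = 0.0016). It fell 1.34-fold in Mdl-1-/- against WT under IL-23 (adjusted p = 0.031), a call lost without Mdl-1-/- library 1 or 3, WT IL-23 library 2 or 3 or WT GFP library 1 or 3 (adjusted p = 0.0548 to 0.161).

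In the remaining complexes, mt-Atp8, a small membrane subunit of the ATP synthase, had 54.3, 79.1 and 72.1 CPM in Mdl-1-/- IL-23 libraries, 44.0, 33.9 and 51.2 CPM in WT IL-23 libraries and 76.9, 61.1 and 69.9 CPM in WT GFP libraries. It rose 1.60-fold in Mdl-1-/- against WT under IL-23 (adjusted p = 0.019; 0.0577 to 0.0984 without Mdl-1-/- library 2 or 3 or WT IL-23 library 2) and fell 1.62-fold in WT IL-23 against WT GFP (adjusted p = 0.0056). Its reading frame overlaps mt-Atp6, which averaged 4561 ± 293 CPM in Mdl-1-/- IL-23, 4810 ± 537 CPM in WT IL-23 and 4209 ± 332 CPM in WT GFP ears and was not called. Since the 2 genes share 1 message, and mt-Atp8 had 2619 counts against 190694 over the 9 libraries, their unlike calls do not show 2 messages parting. mt-Cytb, the only mitochondrial subunit of complex III, averaged 5271 ± 208, 5250 ± 657 and 5109 ± 720 CPM in Mdl-1-/- IL-23, WT IL-23 and WT GFP ears (SD, n = 3 each) and was not called either. Nuclear copies on chromosome 1 received 1.02 to 1.05 times the mean counts of mt-Nd3, mt-Nd4l, mt-Co2, mt-Co3 and mt-Atp6, so the levels of these 5 are uncertain. With them left out the log2 ratio of mitochondrial to nuclear counts differed by -0.64 for WT IL-23 against WT GFP. With nuclear members that have a copy left out as well, it differed by -0.55, and by 0.35 for Mdl-1-/- IL-23 against WT IL-23.

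**Figure D2:**
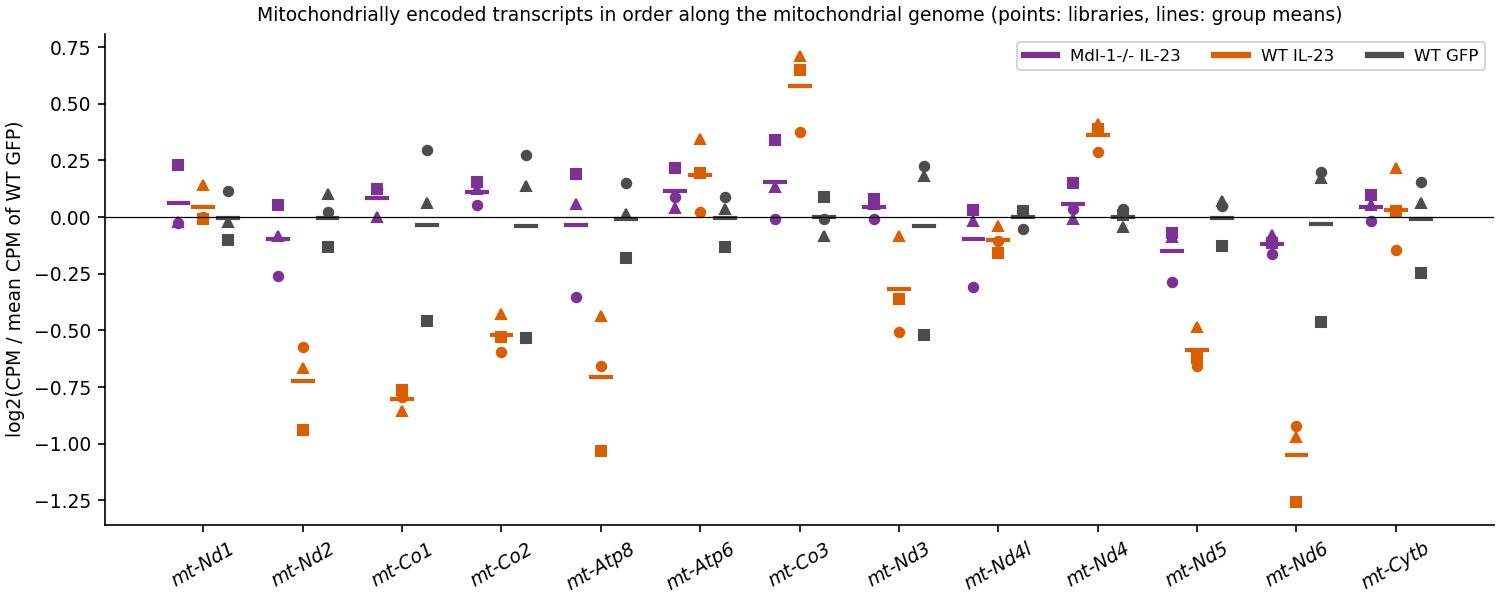
Level of each mitochondrially encoded gene relative to the WT GFP mean (log2 of the ratio of CPM), in the order of the genes along the mitochondrial genome. Points are libraries (circle 1, square 2, triangle 3) and lines group means; WT IL-23 libraries lie lowest for mt-Nd2, mt-Co1, mt-Nd5 and mt-Nd6 and highest for mt-Co3 and mt-Nd4, and WT GFP library 2 lies apart from its group for mt-Co1, mt-Co2, mt-Nd3 and mt-Nd6.

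Some nuclear members of every complex rose in WT IL-23 against WT GFP, and a smaller set was lower in Mdl-1-/- than in WT ears under IL-23. Of 91 nuclear members, 42 rose, 7 fell and 42 were not called in WT IL-23 against WT GFP, where 22.9% of all tested genes were called higher and 21.7% lower, with a median log2 fold change of 0.33 against -0.04 for all tested genes. In Mdl-1-/- against WT under IL-23, 21 fell and 1 rose, where 10.1% of all tested genes were called lower and 7.58% higher, with a median of -0.14 against 0.00. In Mdl-1-/- IL-23 against WT GFP, 5 rose and 0 fell, where 10.2% of all tested genes were called higher and 6.93% lower. The median was 0.16 against -0.02, and 18 had an unadjusted p under 0.05; DESeq2 called 2 lower. The 42 rises ran from 1.27-fold to 4.61-fold and the 21 falls from 1.36-fold to 2.12-fold. With upper-quartile scaling, which moves the median of all genes to -0.20 in WT IL-23 against WT GFP, 26 rose and 11 fell; relative to the median of all genes the nuclear median was 0.37 under both scalings. The count of 21 falls was 8 without Mdl-1-/- library 1, 11 without WT IL-23 library 2 and 13 without WT IL-23 library 3.

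**Figure D3:**
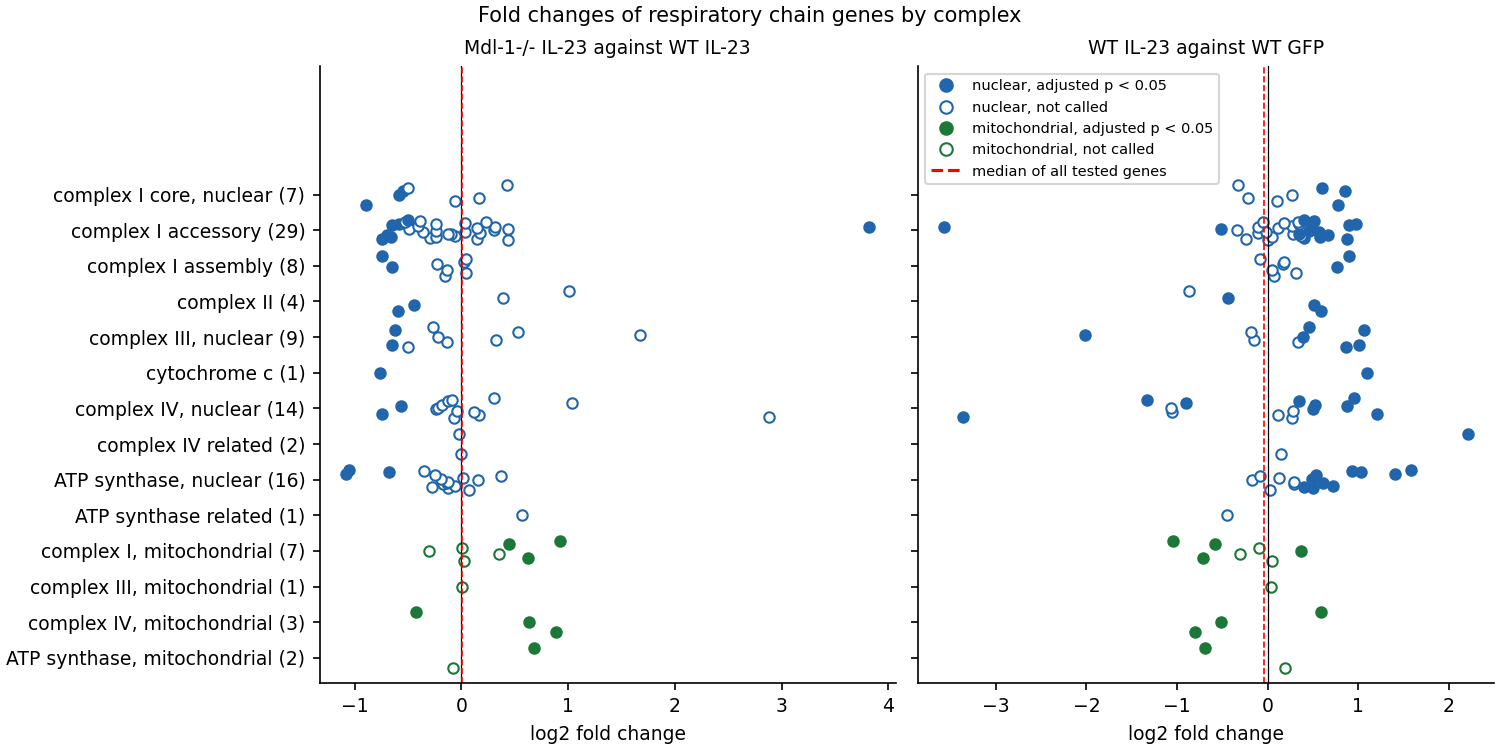
Log2 fold change of each member by complex, with the number of genes in brackets, for Mdl-1-/- IL-23 against WT IL-23 (left) and WT IL-23 against WT GFP (right). Filled points passed an adjusted p of 0.05, open points did not, and the dashed line is the median of all tested genes; for the nuclear ATP synthase, 10 of 16 points on the right are filled, all above 0, and 3 on the left, all below 0.

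In the ATP synthase, 10 of 16 nuclear subunits (62.5%) rose and 0 fell in WT IL-23 against WT GFP. In Mdl-1-/- against WT under IL-23, 3 of 16 (18.8%) fell. Over all tested genes, 22.9% were called higher and 21.7% lower in the first comparison, and 10.1% lower in the second. The 3 that fell were Atp5k, Atp5o and Atp5l, called in both comparisons under each of the 18 alternatives tried. Atp5o, the stalk subunit that couples the catalytic head to the membrane part, had 346, 502 and 479 CPM in Mdl-1-/- IL-23 libraries, 731, 939 and 1082 CPM in WT IL-23 libraries and 280, 352 and 288 CPM in WT GFP libraries. The WT IL-23 libraries were the 3 highest, and the other groups overlapped. Atp5o rose 2.99-fold in WT IL-23 against WT GFP (log2 fold change 1.58, SE 0.17, adjusted p = 6.0e-06) and fell 2.07-fold in Mdl-1-/- against WT under IL-23 (log2 fold change -1.05, SE 0.17, adjusted p = 0.0018). It was 1.44-fold higher in Mdl-1-/- IL-23 than in WT GFP ears (adjusted p = 0.043), a call lost without Mdl-1-/- library 2 or 3, WT IL-23 library 2 or WT GFP library 1 or 3 (adjusted p = 0.0559 to 0.163). Upper-quartile scaling, a minimum count of 30 and non-robust dispersions also ended it (adjusted p = 0.0839, 0.0551 and 0.0559).

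Atp5k and Atp5l, the small membrane subunits e and g that hold ATP synthase dimers together, followed. Atp5k (chromosome 5, 108433244 to 108434448, minus strand) had 208, 313 and 279 CPM in Mdl-1-/- IL-23 libraries, 498, 553 and 642 CPM in WT IL-23 libraries and 187, 249 and 201 CPM in WT GFP libraries. It rose 2.65-fold in WT IL-23 against WT GFP (log2 fold change 1.41, SE 0.17, adjusted p = 1.1e-05) and fell 2.12-fold in Mdl-1-/- against WT under IL-23 (log2 fold change -1.08, SE 0.17, adjusted p = 0.0013). Atp5l averaged 2237 ± 214 CPM in Mdl-1-/- IL-23, 3587 ± 154 CPM in WT IL-23 and 1756 ± 179 CPM in WT GFP ears (SD, n = 3 each), with no overlap between WT IL-23 and either other group. It had a 2.04-fold rise in WT IL-23 against WT GFP (adjusted p = 1.3e-05) and a 1.60-fold fall in Mdl-1-/- against WT under IL-23 (adjusted p = 0.0029). Its level is uncertain, since 4 pseudogenes received 0.787 to 0.987 times its counts. Atp5mpl, another small membrane subunit with a counted copy, and Atp5d, of the central stalk, rose in WT IL-23 against WT GFP (1.90-fold and 1.65-fold). They also rose in Mdl-1-/- IL-23 against WT GFP (1.49-fold, adjusted p = 0.011, and 1.57-fold, adjusted p = 0.0044). Atp5mpl lost its call against WT GFP in Mdl-1-/- IL-23 without Mdl-1-/- library 2 or WT GFP library 3 (adjusted p = 0.064 and 0.067). In the catalytic head, Atp5b rose 1.41-fold in WT IL-23 against WT GFP (adjusted p = 0.019). The call was lost with upper-quartile scaling (adjusted p = 0.0865) and without WT IL-23 library 3 (adjusted p = 0.102). Atp5a1, also of the head, at 509 ± 23.6, 486 ± 24.4 and 476 ± 82.7 CPM in Mdl-1-/- IL-23, WT IL-23 and WT GFP ears, was not called. The difference between the 2 genes was not tested.

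Of the 36 nuclear subunits of complex I, 15 rose and 2 fell in WT IL-23 against WT GFP, and 9 fell and 1 rose in Mdl-1-/- against WT under IL-23. Among the 7 core subunits, which carry the flavin and the iron-sulfur clusters, Ndufs1, Ndufs8 and Ndufv1 rose in WT IL-23 against WT GFP and Ndufs1, Ndufs7 and Ndufs8 fell in Mdl-1-/- against WT under IL-23. Ndufs1 had 72.9, 103 and 97.5 CPM in Mdl-1-/- IL-23 libraries, 131, 172 and 205 CPM in WT IL-23 libraries and 90.1, 106 and 101 CPM in WT GFP libraries. It fell 1.85-fold in Mdl-1-/- against WT under IL-23 (log2 fold change -0.89, SE 0.17, adjusted p = 0.004) and rose 1.71-fold in WT IL-23 against WT GFP (adjusted p = 0.002), and the WT IL-23 libraries stood apart from the rest. Ndufv1 lost its rise without WT IL-23 library 3 or WT GFP library 3 and with upper-quartile scaling (adjusted p = 0.0515 to 0.0677). Ndufs7 lost its fall without any Mdl-1-/- library, WT IL-23 library 1 or 2 or WT GFP library 3 (adjusted p = 0.0551 to 0.126), and Ndufs8 in 10 of 18 alternatives (highest adjusted p = 0.165).

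The accessory subunits Ndufa5 and Ndufa11, which lie around the core, were also highest in WT IL-23 ears. Ndufa5 had 113, 116 and 129 CPM in Mdl-1-/- IL-23 libraries, 185, 189 and 207 CPM in WT IL-23 libraries and 125, 134 and 106 CPM in WT GFP libraries. Ndufa11 had 56.6, 66.6 and 68.8 CPM in Mdl-1-/- IL-23 libraries, 98.3, 110 and 112 CPM in WT IL-23 libraries and 52.6, 68.3 and 54.0 CPM in WT GFP libraries. For each, the WT IL-23 libraries were the 3 highest and the other groups overlapped. Ndufa5 fell 1.62-fold (adjusted p = 0.0038) and Ndufa11 1.67-fold (adjusted p = 0.0046) in Mdl-1-/- against WT under IL-23; they rose 1.59-fold (adjusted p = 0.00087) and 1.84-fold (adjusted p = 0.00022) in WT IL-23 against WT GFP. Ndufa6 averaged 330 ± 4.37, 352 ± 33.4 and 290 ± 29.3 CPM in Mdl-1-/- IL-23, WT IL-23 and WT GFP ears and was not called. Of 8 assembly factors, which build complex I without staying in it, only Ndufaf4 and Ndufaf8 were called. Both fell in Mdl-1-/- against WT under IL-23 (1.57-fold and 1.67-fold) and rose in WT IL-23 against WT GFP (1.70-fold and 1.86-fold). The share of the 8 called higher in WT IL-23 against WT GFP lies near the 22.9% of all tested genes. In Mdl-1-/- against WT under IL-23, 10.1% of all tested genes were called lower. The fall of Ndufaf4 was lost without Mdl-1-/- library 1 or WT IL-23 library 3 (adjusted p = 0.0821 and 0.076) and that of Ndufaf8 without Mdl-1-/- library 1 or 3 (adjusted p = 0.0521 and 0.0597).

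Complex II, succinate dehydrogenase, split by part. Its matrix subunits, the flavoprotein Sdha and the iron-sulfur protein Sdhb, rose in WT IL-23 against WT GFP, and the membrane anchor Sdhc fell. Sdha (chromosome 13, 74322254 to 74350280, minus strand) had 180, 226 and 194 CPM in Mdl-1-/- IL-23 libraries, 262, 304 and 340 CPM in WT IL-23 libraries and 203, 209 and 189 CPM in WT GFP libraries. It rose 1.51-fold in WT IL-23 against WT GFP (log2 fold change 0.59, SE 0.14, adjusted p = 0.0029) and fell 1.51-fold in Mdl-1-/- against WT under IL-23 (log2 fold change -0.59, SE 0.14, adjusted p = 0.01; 0.0544 without Mdl-1-/- library 1). Sdhb had 92.6, 112 and 95.8 CPM in Mdl-1-/- IL-23 libraries, 137, 134 and 138 CPM in WT IL-23 libraries and 88.2, 115 and 83.8 CPM in WT GFP libraries. It rose 1.42-fold in WT IL-23 against WT GFP (adjusted p = 0.011; 0.0523 and 0.0723 without WT GFP library 1 or 3, and 0.0529 with upper-quartile scaling). Its fall of 1.36-fold in Mdl-1-/- against WT under IL-23 (adjusted p = 0.047) was lost in 11 of 18 alternatives. Sdhc had 62.8, 68.4 and 58.2 CPM in Mdl-1-/- IL-23 libraries, 47.7, 43.8 and 53.9 CPM in WT IL-23 libraries and 72.2, 54.0 and 69.8 CPM in WT GFP libraries. WT GFP library 2 lay next to the WT IL-23 range. The 1.35-fold fall in WT IL-23 against WT GFP (adjusted p = 0.031) was lost without WT IL-23 library 1 or 2 or WT GFP library 1 or 3 (adjusted p = 0.0723 to 0.134) and with DESeq2 (adjusted p = 0.0538). Sdhd, the other anchor, had 6.26, 7.32 and 3.59 CPM, 2.75, 3.07 and 2.65 CPM, and 9.05, 3.31 and 3.25 CPM in Mdl-1-/- IL-23, WT IL-23 and WT GFP libraries and was not called.

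In complex III, which hands electrons to cytochrome c, 5 of 9 nuclear members (55.6%) rose and 1 (11.1%) fell in WT IL-23 against WT GFP. There 22.9% of all tested genes were called higher and 21.7% lower. In Mdl-1-/- against WT under IL-23, 2 (22.2%) fell, where 10.1% of all tested genes were called lower. The hinge protein Uqcrh had 342, 429 and 447 CPM in Mdl-1-/- IL-23 libraries, 495, 656 and 719 CPM in WT IL-23 libraries and 294, 307 and 293 CPM in WT GFP libraries. No groups overlapped: WT IL-23 lay highest and WT GFP lowest. Uqcrh rose 2.09-fold in WT IL-23 against WT GFP (adjusted p = 5.7e-05) and fell 1.54-fold in Mdl-1-/- against WT under IL-23 (adjusted p = 0.012; 0.0594 to 0.0673 without Mdl-1-/- library 1 or WT IL-23 library 2 or 3). Cyc1, the subunit with the heme that meets cytochrome c, averaged 45.0 ± 9.36, 64.0 ± 9.67 and 35.0 ± 4.27 CPM in Mdl-1-/- IL-23, WT IL-23 and WT GFP ears, a 1.83-fold rise in WT IL-23 against WT GFP (adjusted p = 0.0011). Its log2 fold change of -0.50 in Mdl-1-/- against WT under IL-23 missed the threshold (adjusted p = 0.061). Cycs, cytochrome c itself, had 90.6, 145 and 124 CPM in Mdl-1-/- IL-23 libraries, 188, 183 and 238 CPM in WT IL-23 libraries and 102, 89.2 and 93.6 CPM in WT GFP libraries. It rose 2.13-fold in WT IL-23 against WT GFP (log2 fold change 1.09, SE 0.17, adjusted p = 0.00011) and fell 1.69-fold in Mdl-1-/- against WT under IL-23 (log2 fold change -0.76, SE 0.17, adjusted p = 0.0075).

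In complex IV, 6 of 14 nuclear subunits rose and 3 fell in WT IL-23 against WT GFP, and 2, Cox6a1 and Cox7a2, fell in Mdl-1-/- against WT under IL-23. The shares called lower, 21.4% and 14.3%, lie near those of all tested genes, 21.7% and 10.1%. The share called higher in WT IL-23 against WT GFP was 42.9%, against 22.9% of all tested genes. Cox6a1 and Cox7a2 are the isoforms found in most tissues. Cox6a1 had 122, 163 and 132 CPM in Mdl-1-/- IL-23 libraries, 207, 234 and 260 CPM in WT IL-23 libraries and 86.7, 120 and 96.8 CPM in WT GFP libraries, with the WT IL-23 libraries the 3 highest. It rose 2.31-fold in WT IL-23 against WT GFP (log2 fold change 1.21, SE 0.16, adjusted p = 2.8e-05) and fell 1.68-fold in Mdl-1-/- against WT under IL-23 (log2 fold change -0.75, SE 0.16, adjusted p = 0.006). Cox7a2 rose 1.84-fold (adjusted p = 0.00045) and fell 1.48-fold (adjusted p = 0.026), the fall being lost without Mdl-1-/- library 1 or 3 or WT IL-23 library 2 or 3 (adjusted p = 0.0505 to 0.122). The nuclear subunits Cox4i1 and Cox6b1 were called in no comparison, at 161 ± 15.8, 169 ± 16.7 and 140 ± 11.1 CPM for Cox4i1 in Mdl-1-/- IL-23, WT IL-23 and WT GFP ears. Cox6c, another nuclear subunit, rose 1.42-fold in WT IL-23 against WT GFP (adjusted p = 0.024; 0.0614 to 0.0975 without WT IL-23 library 2 or 3 or WT GFP library 2, and 0.101 with upper-quartile scaling).

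Ndufa4 and Ndufa4l2 were higher in both IL-23 groups than in WT GFP ears, and for the Mdl-1-/- group genotype and IL-23 cannot be told apart in this comparison. Ndufa4, a subunit of complex IV despite its name, had 137, 177 and 228 CPM in Mdl-1-/- IL-23 libraries, 123, 127 and 188 CPM in WT IL-23 libraries and 88.4, 51.0 and 86.5 CPM in WT GFP libraries. All IL-23 libraries lay above all GFP libraries. It was 2.39-fold higher in Mdl-1-/- IL-23 than in WT GFP (adjusted p = 0.0049) and 1.93-fold higher in WT IL-23 than in WT GFP (adjusted p = 0.0084). Ndufa4l2, its paralog induced by hypoxia that lowers complex I activity, had 5.37, 14 and 11 CPM in Mdl-1-/- IL-23 libraries, 10.8, 11.2 and 8.60 CPM in WT IL-23 libraries and 2.44, 1.65 and 2.47 CPM in WT GFP libraries. Its rises were 4.55-fold (adjusted p = 0.00068) and 4.61-fold (adjusted p = 0.00016) in those comparisons, which share the GFP libraries. For Mdl-1-/- against WT under IL-23 the log2 fold changes were 0.31 (SE 0.24, adjusted p = 0.41) for Ndufa4 and -0.02 (SE 0.31, adjusted p = 0.97) for Ndufa4l2.

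The 7 nuclear members that fell in WT IL-23 against WT GFP were Ndufb6, Cox5a, Ndufb3, Uqcrc2, Sdhc, Cox8b and Cox7c. In all 7, WT GFP library 2 was the lowest of its group, as it was in all 6 mitochondrial genes that fell, against 37.0% of all tested genes. It was also the lowest in 52.7% of the 91 nuclear and 76.9% of the 13 mitochondrial members, and in 31.0% of the 42 nuclear members that rose. The share among all genes called lower, the closer reference for genes picked by a fall, was not computed. The log2 ratio of library 2 to the other GFP libraries had a median of -1.39 over the 7 and -0.45 over the 6, against 0.01 over all tested genes. Ndufb6, an accessory subunit of complex I (chromosome 4, 40270591 to 40279421, minus strand), had 35, 23 and 38 counts in Mdl-1-/- IL-23 libraries, 5, 1 and 0 in WT IL-23 libraries and 59, 6 and 46 in WT GFP libraries. The count of 0 allows up to 0.992 CPM. It fell 11.9-fold in WT IL-23 against WT GFP (adjusted p = 0.0096; 0.108 with limma voom). It was the 1 nuclear member higher in Mdl-1-/- than in WT under IL-23 (14.1-fold, adjusted p = 0.019), with an adjusted p of 0.11 in limma voom. Leaving out Mdl-1-/- library 1 or 3 or WT IL-23 library 2 or 3 also ended that call (adjusted p = 0.0546 to 0.0864). With WT GFP library 2 left out, 8 nuclear members were called higher in Mdl-1-/- against WT under IL-23 and 10 lower in WT IL-23 against WT GFP.

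Cox5a, a nuclear subunit of complex IV, had 8, 6 and 20 counts in Mdl-1-/- IL-23 libraries, 0, 3 and 1 in WT IL-23 libraries and 35, 3 and 28 in WT GFP libraries. Uqcrc2, a core protein of complex III, had 23, 14 and 32, then 7, 10 and 3, then 63, 7 and 51 counts in those groups. In both genes WT GFP library 2 lay within the WT IL-23 range of counts. The falls in WT IL-23 against WT GFP were 10.3-fold for Cox5a (adjusted p = 0.016; 0.0543 and 0.0587 without WT IL-23 library 3 or 1, and 0.11 with limma voom). They were 4.04-fold for Uqcrc2 (adjusted p = 0.03; 0.0643 to 0.108 without any WT IL-23 library or WT GFP library 1 or 3, and 0.257 with limma voom). Ndufb3, an accessory subunit of complex I, fell 1.43-fold (adjusted p = 0.029) and Cox7c, a small subunit of complex IV, 1.86-fold (adjusted p = 0.048), each with overlapping groups. Ndufb3 lost its call without WT IL-23 library 2 or 3 or WT GFP library 1 or 3 (adjusted p = 0.079 to 0.185), and Cox7c in 8 of 18 alternatives (highest adjusted p = 0.13). The count of 7 was 2 on leaving out any 1 WT IL-23 library or WT GFP library 1 or 3.

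**Figure D4:**
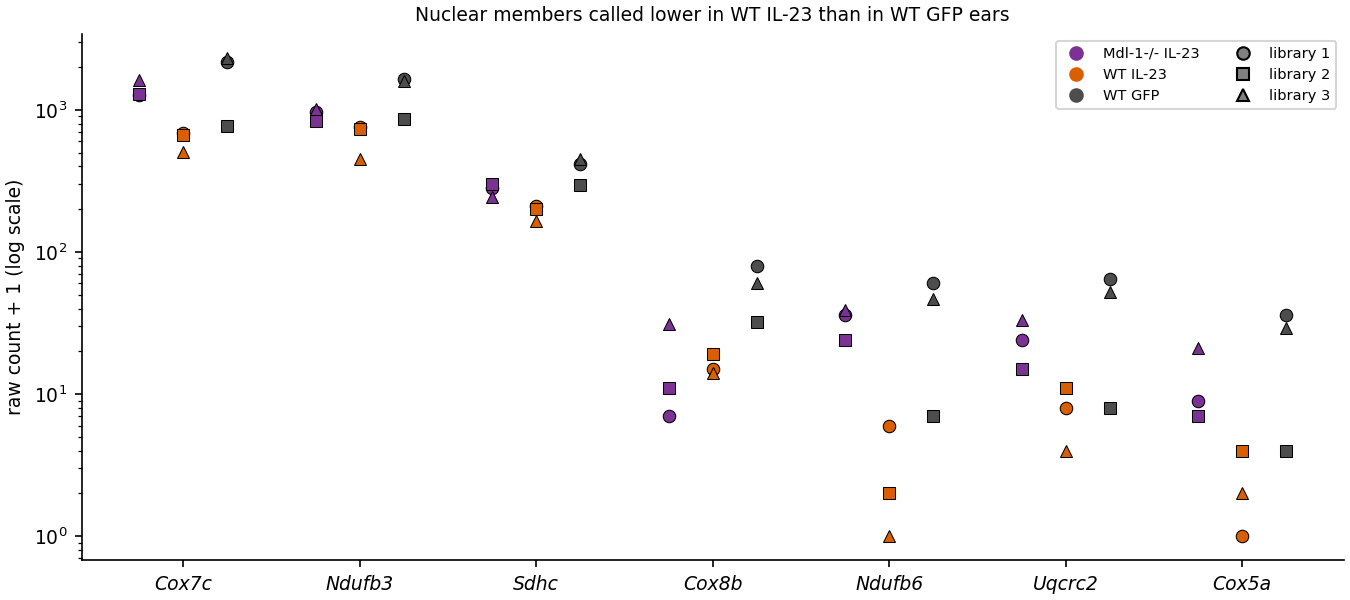
Raw counts plus 1 (log axis) of the 7 nuclear members called lower in WT IL-23 than in WT GFP ears, by library (circle 1, square 2, triangle 3) and group. WT GFP library 2 is the lowest GFP library in all 7, and Ndufb6, Cox5a and Uqcrc2 have 10 counts or fewer in every WT IL-23 library.

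Subunits with a heart and skeletal muscle form showed a different pattern from their common partners. Cox6a2, Cox7a1 and Cox8b are the muscle isoforms of Cox6a1, Cox7a2 and Cox8a. Of the counts of each pair, Cox6a2 took 10.9% to 28.4% in Mdl-1-/- IL-23 libraries, 9.45% to 11.4% in WT IL-23 libraries and 24.3% to 44.7% in WT GFP libraries. Cox7a1 took 3.60% to 9.81%, 3.86% to 5.93% and 9.42% to 19.95%, and Cox8b 0.839% to 4.03%, 1.64% to 2.25% and 3.69% to 8.05%, in the same groups. For all 3 pairs the WT IL-23 shares lay below all WT GFP shares, and Mdl-1-/- library 3 lay above the other IL-23 libraries and above WT GFP library 2.

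The markers of muscle were high and low in the same libraries, and their part in these shares was not tested. The summed level of 20 skeletal muscle markers was 701, 1055 and 2518 CPM in Mdl-1-/- IL-23 libraries, 1105, 1247 and 1289 CPM in WT IL-23 libraries and 3630, 1993 and 2927 CPM in WT GFP libraries. Tnnc2 and Mb, of the 20, were at or near 0 throughout. Of 18 tested markers 7 fell in WT IL-23 against WT GFP and 1 rose in Mdl-1-/- against WT under IL-23. Over all tested genes 21.7% were called lower and 7.58% higher in those comparisons, so the 1 rise lies near that share. Cox8b had 1.34, 2.29 and 7.19 CPM in Mdl-1-/- IL-23 libraries, 3.21, 3.94 and 4.30 CPM in WT IL-23 libraries and 13.7, 5.69 and 9.13 CPM in WT GFP libraries. It fell 2.51-fold in WT IL-23 against WT GFP (adjusted p = 0.037), a call lost without any WT IL-23 library or WT GFP library 1 or 3 (adjusted p = 0.0723 to 0.145). The log2 fold changes of Cox6a2 and Cox7a1 were -1.05 (SE 0.40, adjusted p = 0.058) and -1.06 (SE 0.50, adjusted p = 0.12). Cox6a2 passed in 9 of 18 alternatives and Cox7a1 in 3, among them without Mdl-1-/- library 3 (adjusted p = 0.000922 and 0.0109). Cox8a rose 1.27-fold in WT IL-23 against WT GFP (adjusted p = 0.042), which was lost in 10 of 18 alternatives. The ratio of mitochondrial to nuclear counts hardly moved with the 3 muscle isoforms left out, at log2 differences of 0.36 and -0.55 for Mdl-1-/- IL-23 against WT IL-23 and WT IL-23 against WT GFP.

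**Figure D5:**
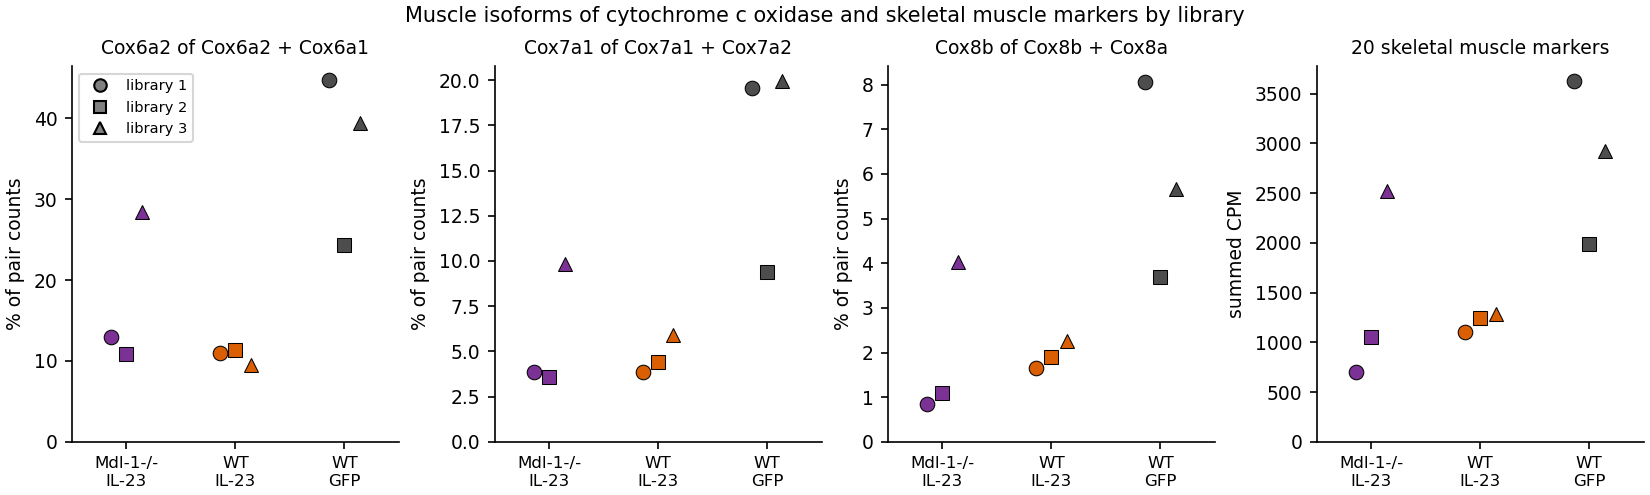
Share of the muscle isoform in the counts of each isoform pair (%, left 3 panels) and summed CPM of 20 skeletal muscle markers (right), by group; each point is a library (circle 1, square 2, triangle 3). Mdl-1-/- library 3 and the WT GFP libraries are high in all 4 panels.

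Promoter sequence was looked at for what the nuclear members share. NRF1, a transcription factor known to act on many respiratory genes, has a well-known palindromic motif. Of 91 nuclear members 75 had an entry in the RefSeq promoter table (GRCm38.p6), and in the 250 bases before the start the motif or its reverse complement stood in 13 of 75 (17.3%), against 927 of 17492 protein-coding promoters (5.30%). The motif of GABP, another such factor, spelled CCGGAAGT, stood in 3 of 75 (4.0%) against 3.84%, and that of YY1, AAGATGGC, in 0 against 1.51%; both strands were searched, and none of these motifs contains another. Of the 13 members with the NRF1 motif 7 rose and 0 fell in WT IL-23 against WT GFP and 6 fell in Mdl-1-/- against WT under IL-23; of the 62 without it 28 rose and 5 fell, and 13 fell. A match is a run of letters and not a bound site. Atp5k, Ndufa5 and Sdha have the motif and were called in both comparisons. Their windows overlap an annotated exon beyond a set limit and are not printed. The promoters printed are of other genes called in both comparisons, with the NRF1 motif in capitals, 5' to 3' and ending at the base before the RefSeq start. They are Cox6a1 at chr5:115348959-115349208 (minus strand) with 2 matches, at positions -162 and -117 from the start, Ndufa11 at chr17:56717512-56717761 (plus strand) with 1 at -60, and Ndufaf4 at chr4:24897833-24898082 (plus strand) with 1 at -113. In GENCODE M21 the Cox6a1 gene reaches 115348981, inside its window, and Ndufa11 begins at 56717767, so these positions hold for the RefSeq starts only.
Cox6a1: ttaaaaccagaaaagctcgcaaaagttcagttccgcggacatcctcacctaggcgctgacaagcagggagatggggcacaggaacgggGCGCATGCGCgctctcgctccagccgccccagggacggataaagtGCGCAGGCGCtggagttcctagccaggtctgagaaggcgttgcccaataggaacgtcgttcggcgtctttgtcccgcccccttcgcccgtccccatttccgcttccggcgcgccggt
Ndufa11: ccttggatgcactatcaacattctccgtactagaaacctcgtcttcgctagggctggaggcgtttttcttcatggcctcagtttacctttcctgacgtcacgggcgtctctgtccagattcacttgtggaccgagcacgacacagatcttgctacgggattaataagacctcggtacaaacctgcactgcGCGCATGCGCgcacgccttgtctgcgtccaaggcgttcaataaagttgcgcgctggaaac
Ndufaf4: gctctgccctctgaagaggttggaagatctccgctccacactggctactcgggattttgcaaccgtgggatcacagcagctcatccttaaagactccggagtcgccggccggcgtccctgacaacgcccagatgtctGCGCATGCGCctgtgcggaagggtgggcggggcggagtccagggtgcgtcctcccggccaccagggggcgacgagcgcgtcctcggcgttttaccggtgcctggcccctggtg

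Genes that build and express the chain, but are not members, were followed by list. Of 36 tested assembly factors outside the Nduf names, 9 rose and 5 fell in WT IL-23 against WT GFP, and 1 rose and 4 fell in Mdl-1-/- against WT under IL-23. Of all tested genes, 22.9% were called higher and 21.7% lower in the WT comparison and 7.58% higher and 10.1% lower in the Mdl-1-/- comparison, so the 9 rises and the 4 falls lie near the shares of all genes. Atpaf1, which assembles the ATP synthase head, averaged 28.4 ± 3.10, 55.1 ± 6.83 and 31.0 ± 4.25 CPM in Mdl-1-/- IL-23, WT IL-23 and WT GFP ears. It showed a fall of 1.94-fold in Mdl-1-/- against WT under IL-23 (adjusted p = 0.0025) and a rise of 1.77-fold in WT IL-23 against WT GFP (adjusted p = 0.00085). Uqcc2, which assembles complex III, rose 1.92-fold in Mdl-1-/- IL-23 (adjusted p = 0.0025) and 1.93-fold in WT IL-23 (adjusted p = 0.00072), each against WT GFP. Other genes of the list moved differently. Ttc19 and Cox15 fell 1.89-fold (adjusted p = 0.0022) and 2.06-fold (adjusted p = 0.0092) in WT IL-23 against WT GFP. Cmc1 rose 1.71-fold in Mdl-1-/- against WT under IL-23 (adjusted p = 0.026), a call lost in 5 of 18 alternatives.

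Of 27 tested genes for upkeep and expression of mitochondrial DNA, 8 rose and 3 fell in WT IL-23 against WT GFP and 6 fell in Mdl-1-/- against WT under IL-23. Beside them stand 22.9% of all tested genes higher and 21.7% lower, and 10.1% lower. The median log2 fold change of the list in WT IL-23 against WT GFP was -0.04, that of all tested genes also -0.04. Lrpprc, which stabilises mitochondrial messages, averaged 128 ± 13.1 CPM in Mdl-1-/- IL-23, 301 ± 22.2 CPM in WT IL-23 and 111 ± 24.7 CPM in WT GFP ears (SD, n = 3 each). It rose 2.72-fold in WT IL-23 against WT GFP (log2 fold change 1.45, SE 0.16, adjusted p = 6.7e-06) and fell 2.36-fold in Mdl-1-/- against WT under IL-23 (log2 fold change -1.24, SE 0.16, adjusted p = 0.00089). Polrmt, the mitochondrial RNA polymerase, averaged 4.69 ± 0.905, 12.6 ± 3.41 and 5.65 ± 1.54 CPM in those groups and fell 2.64-fold in Mdl-1-/- against WT under IL-23 (adjusted p = 0.0065). Tbrg4, a mitochondrial RNA-binding protein, rose 2.59-fold in WT IL-23 against WT GFP (adjusted p = 0.00017). Fastkd1 and Ssbp1, of the same list, fell 2.97-fold (adjusted p = 0.0092) and 1.57-fold (adjusted p = 0.018) in that comparison. Fastkd1 averaged only 1.29 ± 0.369 CPM in WT IL-23 and 3.79 ± 1.04 CPM in WT GFP ears. Fastkd1 lost its call without WT GFP library 3 (adjusted p = 0.0562) and Ssbp1 without WT IL-23 library 2 or 3 or WT GFP library 1 (adjusted p = 0.0527 to 0.108).

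Of 10 tested regulators of mitochondrial biogenesis, 2 rose (Gabpa, 1.76-fold, and Pprc1, 1.58-fold, the second lost in 5 of 18 alternatives) and 3 fell in WT IL-23 against WT GFP. Both counts lie near the shares of all tested genes, 22.9% higher and 21.7% lower. Among the 3 that fell, Esrrg, an orphan receptor of oxidative tissues, did so by 5.84-fold (adjusted p = 0.0027). It averaged only 0.629 ± 0.314 CPM in WT IL-23 and 3.56 ± 1.34 CPM in WT GFP ears, so its fold change is imprecise. Esrra, a related receptor, rose 3.16-fold in Mdl-1-/- against WT under IL-23 (adjusted p = 0.037), at 4.07 ± 0.561 and 1.33 ± 0.648 CPM in those groups. The call was lost with limma voom (adjusted p = 0.0526) and without Mdl-1-/- library 1 or 3 or WT IL-23 library 1 or 2 (adjusted p = 0.0847 to 0.113). Of 17 tested citric acid cycle genes, which feed the chain with NADH and succinate, 4 rose and 3 fell in WT IL-23 against WT GFP, and 1 rose and 5 fell in Mdl-1-/- against WT under IL-23. In the WT comparison this is near the 22.9% higher and 21.7% lower of all tested genes, and in the Mdl-1-/- comparison 10.1% of all tested genes were lower. Idh3g, of NAD-dependent isocitrate dehydrogenase, fell 1.79-fold (adjusted p = 0.0024) and Pdha1, of pyruvate dehydrogenase, 1.88-fold (adjusted p = 0.0024) in Mdl-1-/- against WT under IL-23. Mdh2, malate dehydrogenase, rose 1.75-fold in WT IL-23 against WT GFP (adjusted p = 0.00052). Suclg2 and Fh1, of the same list, went the other way. Suclg2 rose 2.13-fold in Mdl-1-/- against WT under IL-23 (adjusted p = 0.035), a call lost in 5 of 18 alternatives. In WT IL-23 against WT GFP, Suclg2 fell 2.02-fold (adjusted p = 0.020) and Fh1 2.07-fold (adjusted p = 0.029). In Mdl-1-/- IL-23 against WT GFP these 4 lists held 1 rise, Uqcc2, and 1 fall, Dlat (1.40-fold, adjusted p = 0.024; 0.0727 to 0.105 without Mdl-1-/- library 1 or 3 or WT GFP library 1 or 3).

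The authors' deposited table of Mdl-1-/- against WT under IL-23 runs in the other direction. This was read from its signs: among its genes at a false discovery rate under 0.05, 0.0% had the sign found here. With its sign turned, the authors' deposited table lists 5 nuclear members higher and 10 lower and 5 mitochondrial members higher and 0 lower at a false discovery rate under 0.05. The authors' deposited table of WT IL-23 against WT GFP lists 29 nuclear members higher and 7 lower, and 1 mitochondrial member higher and 5 lower. Of the members called here, 11 and 34 nuclear and 5 and 6 mitochondrial ones are also called in the authors' deposited tables of those comparisons, all in the same direction. For Mdl-1-/- against WT under IL-23 the direction was matched beforehand by turning the sign of the whole table.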

How the data were processed

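Ear RNA was measured in 9 libraries, 3 per group, with totals of 3776188 to 5605713 counts, 6.29 to 9.34 times the mean of 600000 reads given in the labels; such totals leave genes of a few counts imprecise. The deposited raw counts per gene were made by the authors with STAR 2.7.0a and featureCounts, per the submitters' processing notes, which name the build GRCh38.p6, a human name, although the gene IDs are mouse. How strand and multimapping reads were handled is not given in the sources used here. Separately deposited log2 fold changes, log2 CPM, p-values and false discovery rates came from edgeR, per the same notes, and were used only for comparison. Counts shared by the deposited tables were identical.

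Symbols, classes and positions came from GENCODE M21 (GRCm38); 115 genes had no symbol, with 0.0109% to 0.0329% of the counts. One edgeR 4.0.16 model over the 3 groups (R 4.3.3, TMM scaling, robust quasi-likelihood F-test, filterByExpr with a minimum count of 10 and total of 15, 6 residual degrees of freedom) was fitted to 13807 genes, with Benjamini-Hochberg adjustment over all of them. CPM are TMM-scaled. A floor of 3 counts was used for a library at 0, for counting error only. Alternatives were upper-quartile and RLE scaling, totals and factors without mitochondrial genes, other or no count filters, non-robust dispersions, DESeq2 1.42.0, limma voom (limma 3.58.1), a replicate block and leaving out each library.

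Members, lists, tests and alternatives were chosen with earlier results of these data known; the ratio without members that have a copy in either class was added after the counts were seen. The text names the 13 mitochondrial genes, the succinate dehydrogenase genes, Cyc1, Cycs, the isoform genes, the nuclear member of each complex with the highest mean CPM and, per comparison and direction, up to 6 nuclear members with the smallest p among those called. Of each other pathway list it names up to 2 per comparison and direction. Other genes are named where a count of 5 or fewer is spelled out. Atp5a1, Atp5b and Cox7c fall outside this rule and were named after their values were seen.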

Additional observations from a re-analysis of the deposited data

How the results depend on the processing

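Of 118 called pairs of a gene and a comparison, 62 kept the call under every alternative and 0 turned sign; 87 of 339 pairs turned sign while uncalled in both fits, none with a main log2 fold change above 0.48 in size. Nuclear members called higher in Mdl-1-/- IL-23 against WT IL-23 (1) were 6 with no count filter, 2 with a minimum count of 30, 2 with non-robust dispersions, 3 with DESeq2, 0 with limma voom and 4 with the replicate block, and mitochondrial members called lower (1) were 2 with DESeq2 and 2 with limma voom. In WT IL-23 against WT GFP, upper-quartile scaling gave 26 nuclear members higher and 11 lower and 1 mitochondrial member higher, and limma voom gave 3 nuclear members lower. In Mdl-1-/- IL-23 against WT GFP, nuclear members called higher (5) were 8 with no filter and 9 with the block, and those called lower (0) were 1 with upper-quartile scaling, 2 with no filter, 1 with non-robust dispersions, 2 with DESeq2, 1 with limma voom and 2 with the block. The log2 ratio in WT IL-23 against WT GFP was -0.644 without mitochondrial members that have a nuclear copy. Beyond the filter and scaling themselves, the cause of these changes was not tested.

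With upper-quartile scaling the all-gene median was -0.20 in WT IL-23 against WT GFP and -0.12 in Mdl-1-/- IL-23 against WT GFP, where the mitochondrial median became -0.05. All genes called higher and lower were 1046 and 1393 in Mdl-1-/- IL-23 against WT IL-23 (1318 and 1161 with this scaling), 3167 and 3002 in WT IL-23 against WT GFP (2471 and 3877) and 1402 and 957 in Mdl-1-/- IL-23 against WT GFP (1108 and 1426).

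Leaving out 1 library at a time gave 1128 to 2802, 4622 to 6352 and 1340 to 2580 genes called in Mdl-1-/- IL-23 against WT IL-23, WT IL-23 against WT GFP and Mdl-1-/- IL-23 against WT GFP. In Mdl-1-/- IL-23 against WT IL-23, 0 to 8 nuclear members were higher and 8 to 21 lower, and 3 to 7 mitochondrial members higher and 0 to 2 lower. Nuclear members called higher there were 8 without WT GFP library 2, 3 without WT GFP library 1, 2 without WT GFP library 3, and 0 without Mdl-1-/- library 1 or 3 or WT IL-23 library 2 or 3; mitochondrial members called higher were 3 without WT IL-23 library 2, and those called lower were 2 without WT GFP library 2. In WT IL-23 against WT GFP, 32 to 42 nuclear members were higher and 2 to 10 lower, and 1 to 2 mitochondrial members higher (1 without WT GFP library 3) and 5 to 7 lower. In Mdl-1-/- IL-23 against WT GFP, 3 to 12 nuclear members were higher, with 12 without Mdl-1-/- library 1, 3 without Mdl-1-/- library 2 or WT GFP library 3, 8 without WT IL-23 library 1 or 3 and 9 without WT GFP library 2; 0 to 3 were lower, with 3 without Mdl-1-/- library 3 and 1 without WT GFP library 2, and 0 mitochondrial members were called throughout. The log2 ratio ran from 0.297 to 0.417, from -0.579 to -0.510 and from -0.240 to -0.120 in the 3 comparisons.

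Same-numbered libraries deviated together weakly (correlations of -0.0863 to 0.230, own number best in 4 of 9), so the numbers were not taken as pairs, and the block values above stand beside the fit without pairing. Depth limits Ndufb6, Cox5a and Uqcrc2, which had 0 to 10 counts in WT IL-23 libraries. It also limits Esrrg, Esrra and Fastkd1 of the other lists, which averaged 0.629, 1.33 and 1.29 CPM in WT IL-23 ears.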
